A study of Mus musculus with 6 samples.

Results

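The genes described here are 10 components of the inflammasome in bone marrow-derived mast cells (BMMCs), namely the sensors Nlrp1a, Nlrp1b, Nlrp3 and Nlrc4, the adaptor Pycard, the caspases Casp1, Casp4 and Casp8, the pore-forming protein Gsdmd and the cytokine Il18. They were chosen by name, as 10 of the 35297 genes to which the RefSeq transcripts of the deposited tables could be paired. Mast cells had been grown from the marrow of BALB/c mice and of C57BL/6 mice, all wild-type and untreated, with stem cell factor, TGF-β1, IL-9 and IL-3 in the medium, and RNA was sequenced on day 20 of culture. There were 3 libraries from BALB/c (S9, S10 and S11) and 3 from C57BL/6 (S12, S13 and S14), and no stimulus is named for these cells. The sex and age of the marrow donors are not stated for these cultures, and each library is treated as 1 culture. The deposited counts describe RNA only, so the cleavage of caspases, gasdermin D or IL-1β was not measured. In such bulk samples, fewer cells that express a gene and less RNA per cell cannot be told apart.

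An inflammasome is a protein platform built in the cytosol when a sensor meets a trigger. NLRP3 responds to ion fluxes and membrane damage, NLRP1 to protease activity, and NLRC4 to bacterial flagellin and secretion system proteins that NAIP proteins bind. Most sensors recruit caspase-1 through the adaptor ASC, encoded by Pycard, while caspase-11, encoded by mouse Casp4, binds lipopolysaccharide directly. Caspase-1 matures IL-1β and IL-18, and inflammatory caspases cut gasdermin D, whose fragment forms pores in the membrane. Caspase-8 starts apoptosis downstream of death receptors, restrains necroptosis and can cut some of the same substrates. In mast cells, IL-1β and related cytokines are among the mediators released in addition to granule contents.

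The windows around the transcription start of the genes with a strain difference are shown first, because Pycard, Casp4 and the reads paired with Nlrp3 differed between the strains in the results that follow. RefSeq windows on GRCm38.p6, from 250 bases before to 50 after an annotated start, were found for 9 of the 10 genes, 12 windows in all, and Gsdmd had no entry. Capitals mark matches on either strand to the kappa B motif of NF-κB or to GAGGAAGT, a core bound by the myeloid factor PU.1. Sequences are written 5′ to 3′ in the direction of the gene.
Pycard, chr7:127993818-127994117, minus strand: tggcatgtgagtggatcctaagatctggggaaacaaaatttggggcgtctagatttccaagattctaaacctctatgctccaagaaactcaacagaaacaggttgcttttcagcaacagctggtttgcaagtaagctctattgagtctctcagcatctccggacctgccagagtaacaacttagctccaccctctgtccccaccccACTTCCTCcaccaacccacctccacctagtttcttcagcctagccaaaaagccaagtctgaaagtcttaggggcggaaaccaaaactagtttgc
Casp4, chr9:5308599-5308898, plus strand: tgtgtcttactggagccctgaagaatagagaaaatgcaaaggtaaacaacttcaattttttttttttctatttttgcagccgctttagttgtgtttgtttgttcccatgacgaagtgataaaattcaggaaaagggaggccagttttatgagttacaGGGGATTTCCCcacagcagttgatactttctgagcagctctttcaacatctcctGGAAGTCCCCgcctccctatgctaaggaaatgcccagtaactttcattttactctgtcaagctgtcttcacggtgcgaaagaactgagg
Nlrp3, first window, chr11:59542436-59542735, plus strand: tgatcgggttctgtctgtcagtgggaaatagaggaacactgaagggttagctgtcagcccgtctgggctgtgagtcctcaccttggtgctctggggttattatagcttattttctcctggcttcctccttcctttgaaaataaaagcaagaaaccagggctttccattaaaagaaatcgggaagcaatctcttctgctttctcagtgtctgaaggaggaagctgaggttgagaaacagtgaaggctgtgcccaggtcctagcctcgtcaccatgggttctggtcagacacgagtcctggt
Nlrp3, second window, chr11:59541319-59541618, plus strand: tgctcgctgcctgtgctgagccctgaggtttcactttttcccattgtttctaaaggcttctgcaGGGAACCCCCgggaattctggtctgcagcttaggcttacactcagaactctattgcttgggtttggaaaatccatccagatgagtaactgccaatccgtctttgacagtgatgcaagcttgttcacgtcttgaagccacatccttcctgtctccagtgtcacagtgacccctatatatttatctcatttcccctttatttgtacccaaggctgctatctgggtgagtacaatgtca

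The Casp4 window held 3 matches to the kappa B motif, beginning at positions -93, -92 and -39 from the annotated start, so the first and second overlap by all but 1 base. The second Casp4 window is the same stretch shifted by a few bases and held the same matches. The second Nlrp3 window held 1 match, at position -186, and the first held none. No other window of these genes held the motif, which was present in 8.46% of all 32851 windows in the table. The Pycard window held 1 PU.1 core, at position -44 on the opposite strand, and the first windows of Nlrp1a and Nlrp1b held 1 each, against 3.20% of all windows. The motif AGATAA, bound by GATA factors, was found in the Casp8 window and in the second Nlrp3 window, against 11.2% of all windows. These matches are descriptions of the C57BL/6 reference sequence, and binding was not measured.

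Depth was similar in the strains, with between 28273365 and 37100869 reads on genes per library, and 12461 genes had enough reads for a test. Levels are given as CPM, reads scaled to library size after correction with TMM factors, and as TPM where genes are compared with each other. The mast cell markers Kit and Fcer1a were high in every library, at 1661 CPM or more, and the summed level of 10 mast cell markers lay between 28122 and 31071 CPM in BALB/c and between 31273 and 33296 CPM in C57BL/6. This sum holds opposite changes, since Tpsb2 was higher in C57BL/6 (means of 1032 and 5166 CPM) while Cma1 (9895 and 7346 CPM) and Mitf were lower. Without Tpsb2 the sum was 27304, 29940 and 29819 CPM in BALB/c against 27844, 26965 and 26439 CPM in C57BL/6, and the strains overlapped. Of 8 macrophage markers, 6 had at most 3 reads in any library and 4 of these (C1qa, C1qb, C1qc and Csf1r) had 0, but Adgre1 and Cd68 brought the sum from between 0.705 and 1.63 CPM in BALB/c to between 13.3 and 13.9 CPM in C57BL/6. The sum of 6 dendritic cell markers was between 7.73 and 8.59 CPM in BALB/c and between 37.1 and 38.9 CPM in C57BL/6, nearly all of it Itgax, while Flt3 had at most 3 reads and Siglech 0. The basophil list summed to between 406 and 418 CPM in BALB/c and between 512 and 523 CPM in C57BL/6, the T or NK cell list to between 4.80 and 5.65 CPM and between 4.44 and 5.10 CPM, and the neutrophil list to at most 0.186 CPM. Most of the basophil sum was Cd200r3, with means of 310 and 297 CPM in BALB/c and C57BL/6, which did not pass the test, nor did Itga2, and Il18r1, also on this list, was lower in C57BL/6 (-0.54 on the log2 scale). The other 5 genes of the list were higher. Cebpa had 5, 3 and 2 reads in BALB/c against 330, 253 and 334 in C57BL/6, Prss34 had 1, 8 and 2 against 213, 192 and 224, and Ccl9 had 5, 5 and 13 against 338, 310 and 368. Mcpt8, a basophil protease, had 2624, 2421 and 3316 reads against 5934, 4868 and 6453, and Ms4a3 had 30, 31 and 47 against 60, 59 and 85. The part of these marker differences in the results below was not tested.

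Of the 10 genes, 6 had enough reads to be compared, and 4 of these passed an adjusted p of 0.05 in the quasi-likelihood test of edgeR, with p-values adjusted over all genes tested by the Benjamini-Hochberg method. The RNA of Pycard and Casp4 was higher in C57BL/6 BMMCs, and reads on Nlrp3 and Gsdmd were lower. Casp1 and Casp8 did not pass the test. This share has to be read against the whole table, where 52.9% of all genes tested passed, 27% higher and 25.9% lower in C57BL/6. With a 2-fold change as a second criterion only Nlrp3 passed, lower in C57BL/6, against 5.54% of all genes in that direction and 13.3% in either, and the call of Nlrp3 depended on which transcripts were counted as its own, as described with its values. For 4 of the 6 genes the strains did not overlap in any library, against 61.9% of all genes tested. The median log2 fold change, C57BL/6 relative to BALB/c, was -0.02 over the 6 genes and -0.01 over all genes.

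**Figure D1:**
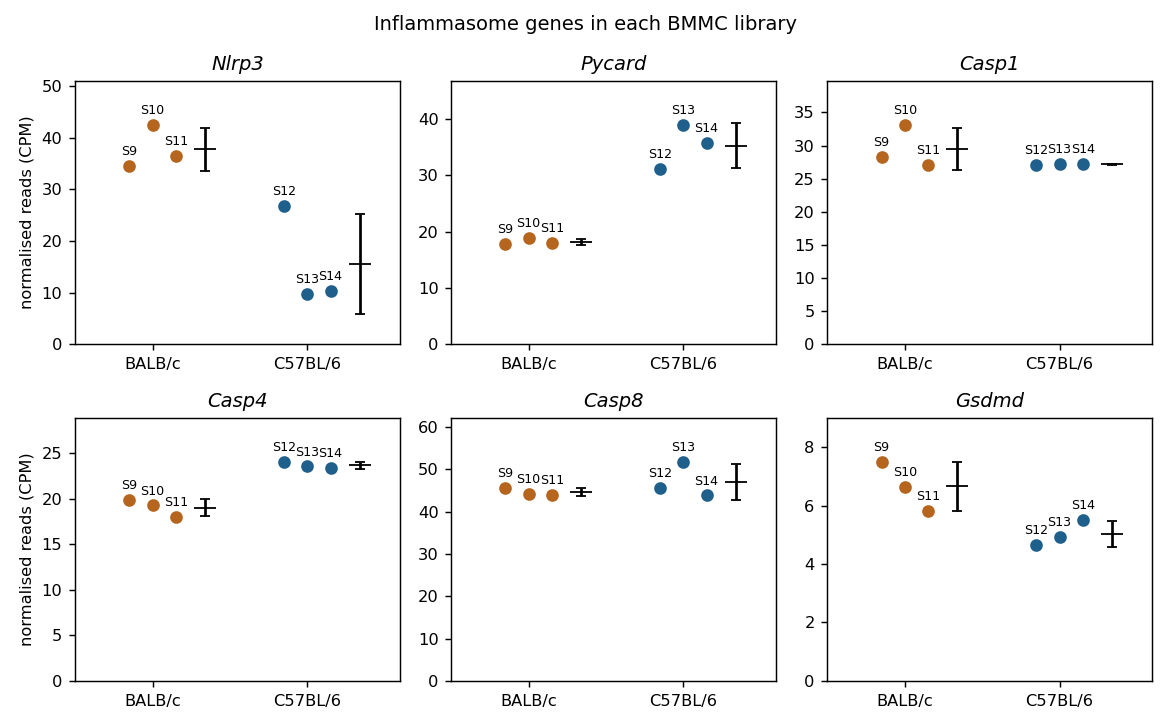
Normalised reads (CPM, linear axes from 0) of the 6 inflammasome genes with enough reads, for each BALB/c and C57BL/6 library (points) with the mean and SD of each strain (n = 3, bars to the right). The strains do not overlap for Nlrp3, Pycard, Casp4 and Gsdmd, and the C57BL/6 library S12 lies apart from S13 and S14 for Nlrp3.

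Nlrp3 (GRCm39 chromosome 11, 59432394 to 59457782, plus strand) encodes the sensor with the widest range of triggers. It had 34.5, 42.5 and 36.4 CPM in the BALB/c libraries S9, S10 and S11, and 26.8, 9.76 and 10.3 CPM in the C57BL/6 libraries S12, S13 and S14. All C57BL/6 libraries lay below all BALB/c libraries, but S12 was nearer to the BALB/c values than to the other two of its own strain. The strain means were 37.8 ± 4.18 and 15.6 ± 9.68 CPM (SD, n = 3 per strain), and the log2 fold change was -1.27 (standard error, SE, 0.32; adjusted p = 0.00918 by edgeR). An exact permutation test of the strain means gave a two-sided p of 0.1, the smallest that 3 against 3 libraries allow, and the same holds for every gene below whose strains do not overlap. Without S12 the log2 fold change was -1.91, and without S13 or S14 it was -1.03. The gap between S12 and the higher of the other two C57BL/6 libraries was 1.34 on a log2 scale, and among 9309 genes with at least 5 CPM in C57BL/6 only Dhx36 had a larger one.

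The reads of Nlrp3 were not spread over the same transcripts in each library. The curated coding transcript that carried reads had 425, 789 and 1229 reads in BALB/c and 694, 134 and 219 in C57BL/6. A predicted coding model had 570 reads in S9, 377 in S10 and 0 in the other four libraries. The non-coding transcript of the gene had 102, 100 and 142 reads in BALB/c and 162, 130 and 147 in C57BL/6, so this part of the gene total was not lower in C57BL/6. When only curated transcripts were counted, the log2 fold change of Nlrp3 was -0.82 and the adjusted p was 0.200 by edgeR. When transcripts matched to no gene were kept as features, the adjusted p was 0.0519 with a log2 fold change of -1.28.

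Part of the reads of each library fell on transcripts that could not be paired with a gene, and 2 of these were tried as additions to Nlrp3. Among the 332 unpaired transcripts within 100 bases of the length range of the Nlrp3 models and with a mean level not above that of Nlrp3 in its highest library, the one chosen was that whose reads, added to Nlrp3, left the least spread within the strains. This was a predicted transcript of 3916 bases with 0 reads in all BALB/c libraries and with 592, 932 and 862 reads in S12, S13 and S14. Added to Nlrp3 it gave 1097, 1266 and 1370 reads in BALB/c and 1448, 1196 and 1228 in C57BL/6. On the CPM scale the sums were 34.5, 42.5 and 36.4 in BALB/c against 45.3, 44.2 and 34.7 in C57BL/6, and the strains overlapped. The log2 fold change of the sum was 0.13, where Nlrp3 alone gave -1.27. The added transcript had 0 reads in BALB/c, so adding it could only raise C57BL/6, and no test of the sum is given. The spread within strains went from 0.60 to 0.19 on the log2 CPM scale, but a small spread was what the transcript was chosen for, so this supports nothing. The transcript next in that order had a spread of 0.22, close to the first, and carried 1633, 1356 and 1747 reads in BALB/c against 771, 667 and 1019 in C57BL/6. With it the sums were 85.7, 88.0 and 82.9 CPM in BALB/c against 50.9, 34.4 and 39.1 CPM in C57BL/6, and the strains stayed apart. The log2 fold change of this sum was -1.04. The second transcript alone averaged 47.8 CPM (BALB/c) and 25.9 CPM (C57BL/6), more than Nlrp3 itself at 37.8 and 15.6 CPM. The sum therefore carries the difference of that transcript. It was also picked for a small spread, so no test of this sum is given and it does not show that Nlrp3 kept its call. The sources used here do not pair either transcript with a gene, both were chosen after seeing the data, and whether the reads of either come from Nlrp3 was not tested. The lower Nlrp3 reads of C57BL/6 BMMCs are therefore a statement on the transcripts paired with Nlrp3, not on all RNA of the gene.

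**Figure D2:**
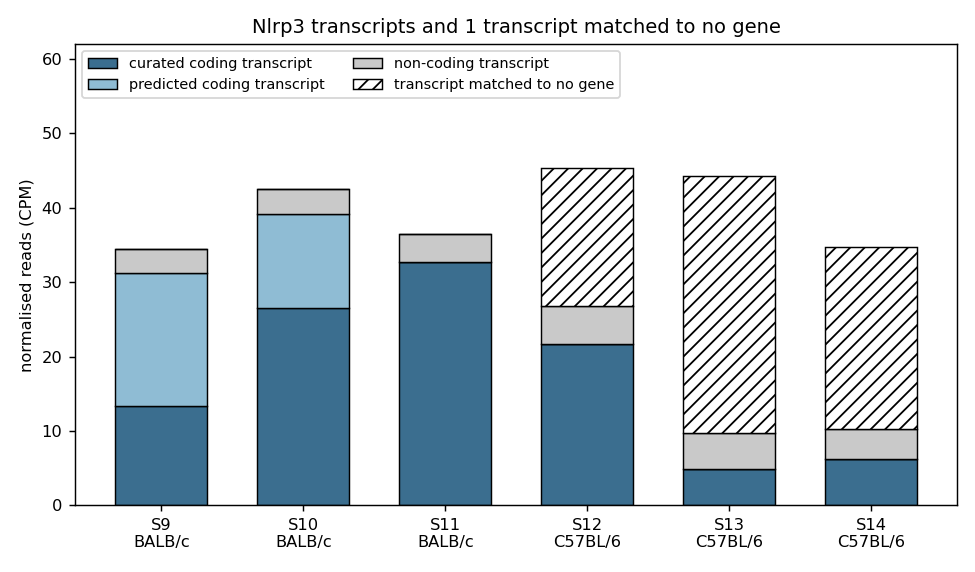
Normalised reads (CPM, stacked, linear axis from 0) in each library on the curated, predicted and non-coding transcripts paired with Nlrp3 and, hatched, on 1 transcript of 3916 bases paired with no gene and chosen after seeing the data. Without the hatched part S13 and S14 are lowest, and with it the C57BL/6 libraries reach 45.3, 44.2 and 34.7 CPM. Whether the hatched reads come from Nlrp3 was not tested.

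The nearest protein-coding genes on either side of Nlrp3 gave little to compare. Zkscan17, which ends before it, had a log2 fold change of 0.03 (SE 0.05, adjusted p = 0.689 by edgeR), and the olfactory receptor gene Or2b11, which follows it, did not have enough reads.

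The other 3 sensors were at or near background in both strains. Nlrp1a (chromosome 11, 70982021 to 71035639, minus strand) had 1, 3 and 2 reads in BALB/c and 0, 1 and 0 in C57BL/6. Its neighbour Nlrp1b (71043928 to 71121559, minus strand), the paralogue through which some mouse strains respond to anthrax lethal toxin, had 5, 3 and 6 reads in BALB/c and 13, 5 and 5 in C57BL/6. Nlrc4 (chromosome 17, 74732433 to 74766165, minus strand) had 0, 3 and 0 reads in BALB/c and 1, 3 and 2 in C57BL/6. None of the 3 passed the filter on low counts, and a difference between the strains was not detectable at this depth, where 3 reads are worth between 0.0798 and 0.111 CPM. These reads are too few for the split between Nlrp1a and Nlrp1b to be judged, since 5.25% of the words of 31 bases in Nlrp1a transcripts also occur in Nlrp1b.

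Pycard (chromosome 7, 127588558 to 127593039, minus strand) encodes ASC, the adaptor that links a sensor to caspase-1. It had 17.9, 18.8 and 17.9 CPM in BALB/c and 31.1, 38.9 and 35.7 CPM in C57BL/6. The BALB/c libraries lay within 1 CPM of each other, and the lowest C57BL/6 library, S12, was well above them. Means were 18.2 ± 0.533 and 35.2 ± 3.95 CPM (SD, n = 3 per strain), a 1.93-fold difference with a 95% interval from 1.70 to 2.20. The log2 fold change was 0.95 (SE 0.08, adjusted p = 1.35e-05 by edgeR), just under the 2-fold criterion. It was 1.04 without S12, and between 0.88 and 0.97 without any one of the other libraries. All reads paired with Pycard lay on a single curated transcript, and its transcripts shared at most 0.0683% of words with another gene. The unpaired transcripts were not searched for Pycard.

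Casp1 (chromosome 9, 5298508 to 5307290, plus strand) encodes the protease that matures IL-1β and IL-18. It had 28.3, 33.1 and 27.0 CPM in BALB/c and 27.1, 27.2 and 27.2 CPM in C57BL/6. The C57BL/6 libraries were almost equal and lay inside the BALB/c range. The log2 fold change was -0.12 with a 95% interval from -0.29 to 0.05 (adjusted p = 0.221 by edgeR), which is a ratio of C57BL/6 to BALB/c between 0.819 and 1.04. The call depended on scaling. With plain library size the log2 fold change was -0.26 (adjusted p = 0.0151 by edgeR), but this scaling also moved the median of all genes to -0.15.

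Casp4 (chromosome 9, 5308828 to 5336783, plus strand) directly follows Casp1 and encodes caspase-11, the lipopolysaccharide receptor of the non-canonical inflammasome. It had 19.8, 19.3 and 18.0 CPM in BALB/c and 24.1, 23.5 and 23.4 CPM in C57BL/6. The strains did not overlap, and the means of 19.0 ± 0.969 and 23.7 ± 0.365 CPM (SD, n = 3 per strain) gave a log2 fold change of 0.32 (SE 0.06, adjusted p = 0.00189 by edgeR), or 1.24-fold. On log2(TPM + 1) it was 0.10 (adjusted p = 0.117 from limma), which ended the call, but this scale also moved the median of all genes to -0.15. The reads of Casp4 lay mostly on 1 curated transcript, which held between 56.0% and 74.3% of them in BALB/c and between 62.7% and 81.6% in C57BL/6. The summed reads of both neighbours gave a log2 fold change of 0.07 (adjusted p = 0.335 by edgeR). Such a sum must lie between the values of both genes, so it tests neither call. In TPM, the ratio of Casp1 to Casp4 was 1.28, 1.52 and 1.29 in BALB/c against 1.02, 1.05 and 1.03 in C57BL/6, without overlap.

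Casp8 (chromosome 1, 58834375 to 58886665, plus strand), the initiator of death receptor apoptosis, had 45.6, 44.1 and 44.0 CPM in BALB/c and 45.5, 51.8 and 43.8 CPM in C57BL/6. S13 was highest and the other 5 libraries lay close together. The log2 fold change was 0.08 with a 95% interval from -0.07 to 0.22 (adjusted p = 0.336 by edgeR), and its sign turned with plain library size (-0.07), on log2(TPM + 1) (-0.09) and with curated transcripts only (-0.23), in none of which it was called. A predicted model took between 36.7% and 46.5% of the reads of Casp8 in BALB/c and between 35.1% and 68.6% in C57BL/6, the highest share being that of S12.

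Gsdmd (chromosome 15, 75733974 to 75739257, plus strand) encodes gasdermin D, the pore-forming substrate of the inflammatory caspases. It was the lowest of the genes tested, with 7.51, 6.64 and 5.83 CPM in BALB/c and 4.66, 4.92 and 5.51 CPM in C57BL/6. The highest C57BL/6 library, S14, lay only just below the lowest BALB/c library, S11. The log2 fold change was -0.40 (SE 0.13, adjusted p = 0.0240 by edgeR), or 1.32-fold lower in C57BL/6. The direction held in every alternative, but the call did not. It was lost with DESeq2 (adjusted p = 0.0521), with curated transcripts only (adjusted p = 0.182 by edgeR) and when any one of S9, S10, S12 or S13 was left out (adjusted p between 0.0526 and 0.0835 by edgeR).

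Il18 (chromosome 9, 50466081 to 50493633, plus strand), the cytokine that caspase-1 matures together with IL-1β, had 1 read in S12 and 0 in the other 5 libraries. A count of 0 allows up to 3 reads, which is at most 0.111 CPM in any library. No strain difference in Il18 was detectable at this depth.

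**Figure D3:**
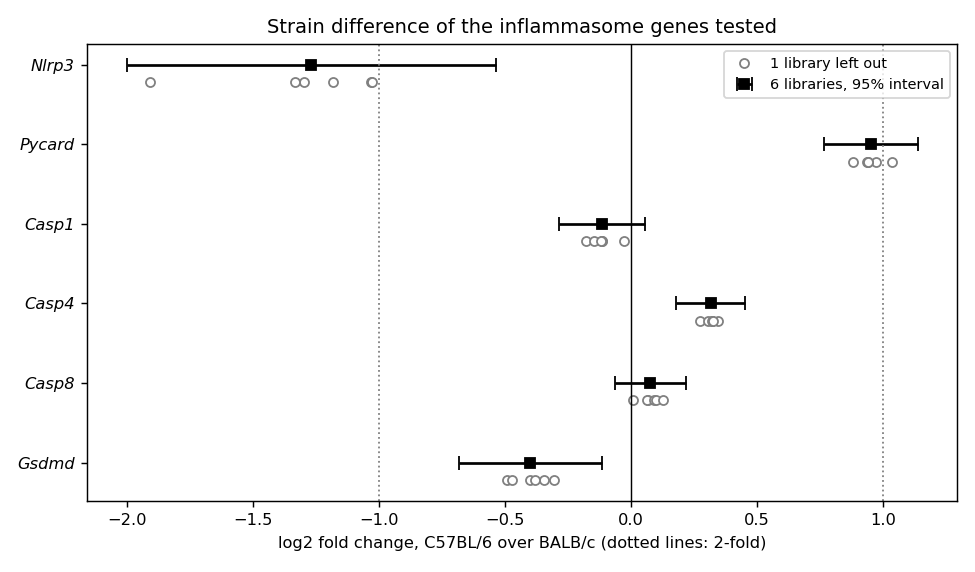
Log2 fold change of C57BL/6 relative to BALB/c for the 6 inflammasome genes tested, with 95% intervals from the fit of 6 libraries (squares) and the values without each single library (open circles), and dotted lines at 2-fold. Nlrp3 moves most, to -1.91 without S12, and the intervals of Casp1 and Casp8 include 0.

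In TPM, which corrects for transcript length and allows genes to be compared with each other, the order of the levels changed between the strains. In BALB/c the order was Casp1 (31.3 ± 3.55), Casp8 (27.6 ± 0.871), Casp4 (23.0 ± 0.979), Nlrp3 (14.2 ± 1.57), Pycard (13.2 ± 0.445) and Gsdmd (5.95 ± 0.793 TPM, SD, n = 3). Casp1 and Casp8 overlapped in BALB/c, as did Nlrp3 and Pycard, and the other neighbours did not. In C57BL/6 it was Casp8 (25.9 ± 1.54), Casp1 (25.5 ± 0.536), Casp4 (24.7 ± 0.873), Pycard (22.5 ± 2.03), Nlrp3 (5.24 ± 3.35) and Gsdmd (3.94 ± 0.343 TPM). There the caspases and Pycard formed a run in which each overlapped the next, Pycard lay above Nlrp3 in each library, and Nlrp3 overlapped Gsdmd. The TPM ratio of Pycard to Nlrp3, adaptor to sensor, was 0.996, 0.850 and 0.944 in BALB/c against 2.23, 7.67 and 6.65 in C57BL/6, and rests on the reads paired with Nlrp3. The ratio of Pycard to Casp1, which does not involve Nlrp3, was 0.429, 0.387 and 0.452 in BALB/c against 0.782, 0.974 and 0.895 in C57BL/6. The remaining 4 genes were all under 0.1 TPM in each library.

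The rest of the pathway was followed in 8 lists of 74 genes, of which 48 had enough reads. At the adjusted p alone, 25 were higher and 7 lower in C57BL/6 BMMCs, against 27% and 25.9% of all genes tested. The split moved with the scaling, to 23 higher and 16 lower with plain library size and to 22 and 16 on log2(TPM + 1), both of which lower the median of all genes by about 0.15 on the log2 scale. Past the 2-fold criterion 10 were higher and 1 was lower, against 7.73% and 5.54% of all genes. On log2(TPM + 1) these counts were 4 and 0. Of the 10, Nlrc5 and Zbp1 reached the minimum count of 10 only in C57BL/6, so the filter left them no other direction. The median log2 fold change of these 48 genes was 0.28, and -0.01 over all genes. The lists were chosen with earlier results of these data known, so these contrasts with all genes support nothing about the pathway. The values are given here by role, and the counts of each list are read against 27% higher and 25.9% lower of all genes tested.

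Among 10 other sensors, 6 were tested, 5 of these were higher in C57BL/6 and none was lower. The largest difference was that of Naip5, a flagellin receptor that works through NLRC4, with 10.3, 9.06 and 10.3 CPM in BALB/c and 39.9, 39.0 and 33.3 CPM in C57BL/6. Its log2 fold change was 1.91 (SE 0.09, adjusted p = 2.67e-07 by edgeR). A predicted Naip5 model had 0 reads in all BALB/c libraries and 601, 491 and 234 in S12, S13 and S14. These were 47.1%, 46.6% and 19.9% of the Naip5 reads of those libraries. The part of this model in the difference was not tested. Naip6 had 7.63, 7.92 and 5.85 CPM in BALB/c and 16.4, 17.3 and 13.4 CPM in C57BL/6, which gave a log2 fold change of 1.14 (SE 0.14, adjusted p = 0.000112 by edgeR). Both lie on chromosome 13 beside Naip2, and 36.7% of the words of 31 bases of Naip5 also occur in Naip6, so the split of reads between them is uncertain. The summed level of Naip2, Naip5 and Naip6 was 48.3, 46.0 and 43.4 CPM in BALB/c and 107, 105 and 96.6 CPM in C57BL/6, without overlap. Their partner Nlrc4, as given above, had no more than 3 reads in any library. The DNA sensor Aim2, which also uses ASC, had 25.0 ± 1.89 and 42.1 ± 1.42 CPM (log2 fold change 0.75), and Nlrp6 had 27.9 ± 3.41 and 44.1 ± 3.54 CPM (log2 fold change 0.66, SD, n = 3 per strain), both passing the adjusted p only. Mefv, Nlrp9b, Nlrp12 and Naip1 had at most 1 read in any library.

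Of 6 other NOD-like receptors, 4 were tested, with 3 higher and none lower in C57BL/6. Nlrc5, a transactivator of MHC class I genes, passed both criteria on few reads, with 4, 3 and 0 in BALB/c against 14, 23 and 23 in C57BL/6. The ratio of its summed reads, per library size, was 9.01 with a 95% counting interval (exact) from 4.11 to 23.4, which covers counting error only. The fitted log2 fold change was 3.10, and it was 2.45 without S11, the library with 0 reads, and 3.72 without S9. Over the alternatives that kept all libraries, the log2 fold change of Nlrc5 lay between 0.14 and 3.16. Its call was lost when transcripts matched to no gene were kept (adjusted p = 0.0563 by edgeR). The other 2 that passed were Nlrc3 (0.23) and Nlrx1 (0.34 on the log2 scale), each below 2-fold, and Nod2, with at most 31 reads in a library, had a log2 fold change of -2.09 and did not pass (adjusted p = 0.0584 by edgeR).

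Of 16 regulators of sensors, 13 were tested, with 6 higher and 3 lower in C57BL/6. The guanylate-binding proteins, interferon-inducible GTPases that coat bacteria and expose their lipopolysaccharide, were represented by 4 genes, all of which passed as higher. Gbp2 had 5.78, 5.80 and 5.67 CPM in BALB/c and between 13.96 and 14.6 CPM in C57BL/6 (log2 fold change 1.31, SE 0.08, adjusted p = 1.21e-06 by edgeR). Gbp3 had 1.26, 1.34 and 0.958 CPM in BALB/c and 3.79, 2.96 and 3.16 CPM in C57BL/6 (log2 fold change 1.49, adjusted p = 0.000173 by edgeR). Gbp5 (0.97), Gbp7 (0.34), the GTPase Irgm1 (0.62) and Card19 (0.46) passed the adjusted p only. In the other direction Gm12250, whose synonym Irgb10 stands for a GTPase that acts with the guanylate-binding proteins on bacterial membranes, had 59, 60 and 66 reads in BALB/c and 20, 14 and 15 in C57BL/6, which gave a log2 fold change of -1.84 (SE 0.23, adjusted p = 0.000134 by edgeR). All of these reads lay on 1 curated transcript that RefSeq lists as protein-coding, whereas GENCODE lists Gm12250 as a long non-coding RNA. Txnip, a redox regulator that can bind NLRP3, stood at 194 ± 4.98 and 132 ± 11.3 CPM, and P2rx7, the ATP-gated channel that triggers NLRP3, had 213 ± 26.3 and 158 ± 2.98 CPM (SD, n = 3 per strain), with log2 fold changes of -0.55 and -0.43. Nek7, a kinase that NLRP3 needs for assembly, did not pass (0.11, adjusted p = 0.0629 by edgeR), nor did Dpp8 and Dpp9, inhibitors of NLRP1.

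Of 7 other caspases, 6 were tested, with none higher and 3 lower in C57BL/6, against 27% and 25.9% of all genes tested. All 3 were below 2-fold. Casp9, the initiator of mitochondrial apoptosis, stood at 43.8 ± 1.21 CPM in BALB/c and at 35.0 ± 2.51 CPM in C57BL/6 (SD, n = 3 per strain), with a log2 fold change of -0.32 (SE 0.06, adjusted p = 0.00135 by edgeR). Casp6 had a log2 fold change of -0.43 (adjusted p = 0.0104 by edgeR).

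All 7 partners of caspase-8 were tested, with 2 higher in C57BL/6 and none lower, against 27% and 25.9% of all genes tested. Zbp1, a sensor of Z-form nucleic acids that leads to necroptosis, had 2, 1 and 1 reads in BALB/c and 33, 21 and 32 in C57BL/6, a ratio of 22.6 per library size with a 95% counting interval (exact) from 8.51 to 84.8. Mlkl, the pore protein of necroptosis, stood at 6.87 ± 1.64 and 12.3 ± 0.283 CPM (SD, n = 3 per strain, log2 fold change 0.84). Fadd, Cflar, Ripk1, Ripk3 and Tradd did not pass, with log2 fold changes between -0.12 and 0.10.

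Of 10 other pore proteins only 2 were tested, and both were higher in C57BL/6. Gsdme, another gasdermin, had 7.57, 7.38 and 6.49 CPM in BALB/c and 17.7, 18.5 and 17.1 CPM in C57BL/6 (log2 fold change 1.32, SE 0.09, adjusted p = 2.17e-06 by edgeR), the opposite direction to Gsdmd. Ninj1, which ruptures the membrane after pores have formed, had 92.6 ± 3.89 and 135 ± 3.03 CPM (SD, n = 3 per strain, log2 fold change 0.54). The gasdermin A and C genes had at most 4 reads in any library.

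Of 10 IL-1 family cytokines and inhibitors 3 were tested, and all were higher in C57BL/6. Il1b had 1.95, 3.52 and 1.81 CPM in BALB/c and 28.1, 24.2 and 21.5 CPM in C57BL/6, which gave a log2 fold change of 3.36 (SE 0.21, adjusted p = 1.83e-06 by edgeR). Il1a had 0.471, 0.403 and 0.266 CPM in BALB/c and 3.04, 2.59 and 2.63 CPM in C57BL/6, which gave a log2 fold change of 2.86 (SE 0.24, adjusted p = 1.08e-05 by edgeR). Il18bp, the soluble inhibitor of IL-18, had a log2 fold change of 0.97, while Il18 itself was near 0 in both strains. The summed macrophage and dendritic cell markers were higher beside Il1b, Il1a, Zbp1 and Nlrc5 in the same 3 libraries, through Adgre1, Cd68 and Itgax, while Csf1r, the C1q genes and Siglech were at 0 and Lyz2, Mrc1 and Flt3 had no more than 3 reads. Of the 8 basophil list genes, Cebpa, Prss34, Ccl9, Mcpt8 and Ms4a3 were higher in these libraries too (log2 fold changes of 6.53, 5.86, 5.52, 1.12 and 0.99), Il18r1 was lower (-0.54), and Cd200r3 (-0.07) and Itga2 (0.15) did not pass. The part of these genes in the cytokine values was not tested.

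Of 8 receptors of the IL-1 family, 7 were tested, with 4 higher and 1 lower in C57BL/6. Both chains of the IL-18 receptor were present and differed in direction. Il18rap had 22.3, 18.9 and 21.9 CPM in BALB/c and 41.9, 46.6 and 44.4 CPM in C57BL/6 (log2 fold change 1.07, SE 0.07, adjusted p = 2.51e-06 by edgeR), while Il18r1 had 13.8 ± 2.04 and 9.47 ± 0.759 CPM (SD, n = 3 per strain, log2 fold change -0.54). The decoy receptor Il1r2 had 46.0 ± 0.213 and 90.3 ± 9.03 CPM (SD, n = 3 per strain, log2 fold change 0.97), and the signalling receptor Il1r1 had at most 2 reads in any library.

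**Figure D4:**
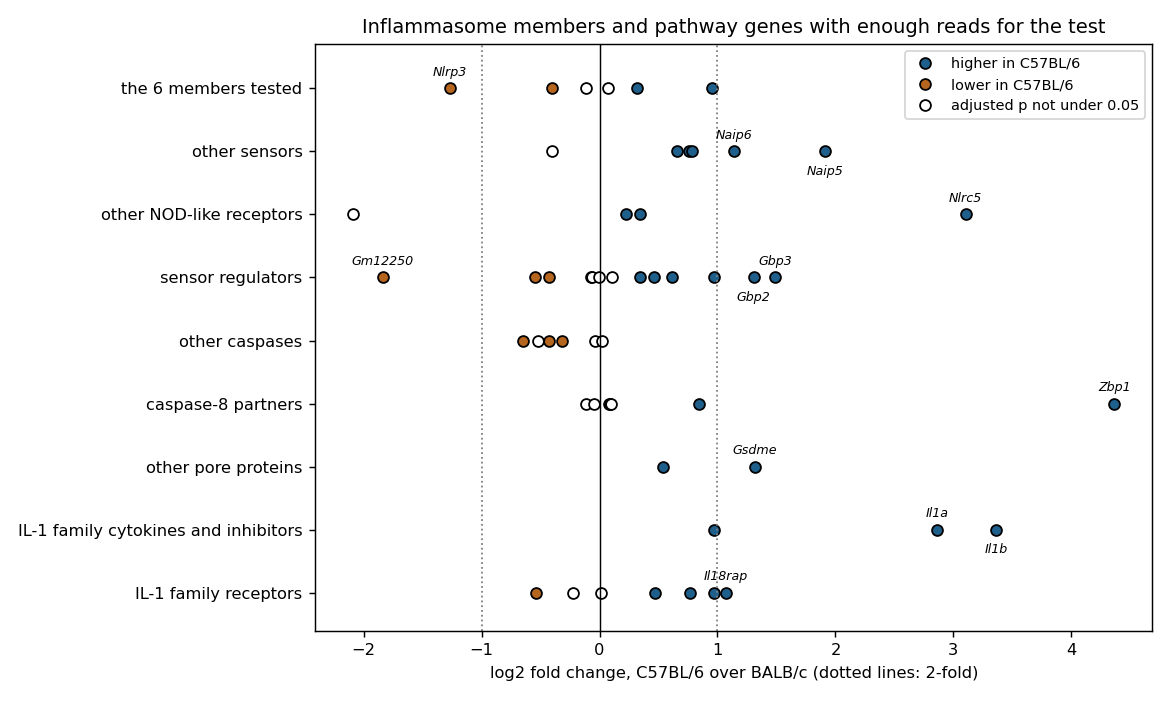
Log2 fold change of C57BL/6 relative to BALB/c for the 6 inflammasome genes tested (top row) and for the 48 tested genes of 8 pathway lists, coloured by whether the adjusted p was under 0.05 and in which direction, with genes past both criteria named and dotted lines at 2-fold. Of the 48 genes, 25 are higher and 7 lower at the adjusted p, Gm12250 (Irgb10) is the only lower one of them past both criteria, and the open point furthest to the left is Nod2 (-2.09), which did not pass the adjusted p.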

How the data were processed

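RNA of day 20 BMMCs was measured in 3 BALB/c and 3 C57BL/6 libraries. The authors prepared stranded mRNA libraries, checked paired reads with FastQC 0.11.5 and quantified transcripts with Salmon 0.8.2. The deposited tables give, per transcript, an expected count (NumReads), which need not be whole, and a TPM, which accounts for effective length. The paper names Ensembl GRCm39, whereas the tables list RefSeq accessions.

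Accessions were paired without their version to symbols through a RefSeq table of GRCm38.p6, used for names only. Of 129698 transcripts 106440 (82.1%) were paired, and unpaired transcripts, with 2.69% to 3.12% of a library's reads, were left out. Gene coordinates are GENCODE's on GRCm39. Expected counts were summed by gene, rounded, and tested with edgeR 4.0.16 in R 4.3.3 (quasi-likelihood test, TMM, filter at a minimum count of 10, strain as the only term, Benjamini-Hochberg adjustment). The thresholds were 0.05 on the adjusted p and 2-fold. The biological coefficient of variation was 0.0665, so for all but genes with few reads the number of cultures limits the precision, and counting intervals cover counting error only. The labels do not say whether libraries come from separate mice, so p-values measure the spread between these libraries.

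Alternatives were DESeq2 1.42.0, other size factors, a transcript length offset, other filters, log2(TPM + 1) and log2(TPM + 0.1) in limma 3.58.1, curated transcripts only, unpaired transcripts kept, summed neighbours and each library left out. All 10 genes, the pathway genes past both thresholds and the neighbours of Nlrp3 are named by rule, and other genes were named after their values were seen. Members and lists were chosen with earlier results of these data known. Some genes of the lists are not reported here.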

Additional observations from a re-analysis of the deposited data

Results flagged for a closer look

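Transcripts paired with no gene, outside the comparisons above, took 2.69% to 3.12% of a library's reads. The highest share was 3.1157% in the BALB/c library S10. Among these transcripts was the one of 3916 bases with 592, 932 and 862 reads in C57BL/6 against 0 in BALB/c. Its reads and those of the one next in order were each added to Nlrp3 above, which cannot decide the call of Nlrp3.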

How the results depend on the processing

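No paired analysis was possible because the labels give the libraries of the 2 strains no shared replicate numbers. The main counts were 2 genes higher and 2 lower in C57BL/6 at the adjusted p, and 0 higher and 1 lower past 2-fold. The number higher was 1 on log2(TPM + 1) and on log2(TPM + 0.1). The number lower was 1 with DESeq2, 0 with curated transcripts only and with unpaired transcripts kept, and 3 with plain library size, log2(TPM + 1) and log2(TPM + 0.1). Past 2-fold, the number lower was 0 with curated transcripts only and with unpaired transcripts kept. With 1 library left out, the number lower was between 1 and 2 at the adjusted p, and the number higher past 2-fold between 0 and 1.

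Nlrp3 lost its call with curated transcripts only (-0.82) and with unpaired transcripts kept (-1.28). Its sums with the unpaired transcript of 3916 bases (0.13) and with the one next in order (-1.04), chosen from these data, cannot decide its call. Casp1 gained a call with plain library size (-0.26), on log2(TPM + 1) (-0.28) and on log2(TPM + 0.1) (-0.29), which moved the median of all genes to -0.15, -0.15 and -0.18. Casp4 lost its call on log2(TPM + 1) (0.10) and log2(TPM + 0.1) (0.10). Summing Casp1 and Casp4 gave 0.068, which must lie between the values of both genes and tests neither call. Casp8, never called, turned to -0.069 with plain library size, -0.086 on log2(TPM + 1), -0.089 on log2(TPM + 0.1) and -0.23 with curated transcripts only. Gsdmd lost its call with DESeq2 (-0.40), curated transcripts only (-0.29) and unpaired transcripts kept (-0.41), and ranged from -0.49 to -0.31 with 1 library left out. Pycard kept its call and direction throughout, between 0.73 and 1.04. The summed reads of Nlrp1a, Nlrp1b and Nlrp1c-ps were too few to test.

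Of the pathway genes, 16 were lower with plain library size and on both TPM scales, where the main test gave 7. Past 2-fold, 4 were higher on log2(TPM + 1), and the number lower was 0 on log2(TPM + 1), 2 on log2(TPM + 0.1) and with plain library size, 3 with no filter, and between 1 and 2 with 1 library left out. Over all genes past 2-fold, plain library size gave 838 higher and 829 lower, a filter of 10 counts in every library gave 613 higher and 404 lower and log2(TPM + 1) gave 434 and 365, against 963 and 690. The causes of these changes were not tested. Depth limits Nlrp1a, Nlrp1b, Nlrc4 and Il18, which had too few reads for the main test and were not called with no filter.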
